A study of Mus musculus with 6 samples.

Results

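The genes described here are 51 genes of the mitotic spindle and kinetochore, the machinery that condenses chromosomes, attaches them to microtubules, pulls them apart and divides the cell. They were chosen by name, from the known role of each, with earlier results of these data known. All 51 were among the 34745 genes listed in the data and among the 14084 genes that passed the filter on low counts. RNA-seq was carried out on cardiac fibroblasts, the connective tissue cells of the heart, taken from the left ventricle of male mice aged 8 to 10 weeks on Day 7 after myocardial infarction (MI), which was induced by tying off the left anterior descending coronary artery. There were 3 libraries labelled KDM5B knockout (KO) and 3 labelled wild type (WT), with MI in every animal and with no sham group, so each value compares the genotypes after injury. KO mice had a CRISPR/Cas9 deletion in the part of *Kdm5b* that encodes the JmjC domain of this histone H3K4 demethylase, in the whole animal rather than in fibroblasts alone, and the WT mice were littermates.

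The labels were first read against *Kdm5b* itself and against cell type markers. *Kdm5b* had 98.1, 107 and 105 CPM (counts scaled to a common library size, with TMM normalization) in the KO libraries 1, 2 and 3 and 108, 129 and 123 CPM in the WT libraries 1, 2 and 3, a log2 fold change of -0.22 (SE 0.07, edgeR adjusted p = 0.0574). The study reported almost no *Kdm5b* mRNA by Q-PCR in cardiac fibroblasts of KO mice. The counts here cover the whole gene rather than the deleted bases alone, and the reason for the small difference was not tested. They do not check the labels, and KO and WT stand below for the libraries that carry these labels. Markers of fibroblasts were abundant in all 6 libraries, with a summed level over 10 genes of 27637 to 32203 CPM in KO and 38354 to 40869 CPM in WT. Markers of endothelial cells, which line vessels, summed to 1403 to 2027 CPM in KO and 257 to 266 CPM in WT, and 9 of the 10 were higher in KO. The libraries held 12025403 to 15329427 counts each. The smallest count of any member in any library was 52, for *Cdc25c*.

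Mitosis is driven by Cdk1 bound to cyclin B, which phosphorylates the proteins that condense chromosomes and build the spindle. Kinetochores assemble on centromeres and capture microtubules, the spindle checkpoint holds the anaphase-promoting complex (APC/C) back until every chromosome is attached, and separase then cuts the cohesin that holds sister chromatids together. Transcripts of most of these genes accumulate only in G2 and M phase, and their promoters are known for CCAAT boxes, bound by NF-Y, and for a cell cycle genes homology region (CHR), bound by the MuvB core of the DREAM complex in resting cells and with B-Myb and FoxM1 in dividing cells. In the infarcted heart, fibroblasts divide in the days after injury and then leave the cell cycle as the scar matures.

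The promoter sequences of members are given first, since the class is known for these elements. Windows from 250 bases before to 50 bases after the start site in RefSeq (GRCm38.p6) were found for 42 of the 51 members, as 44 windows, and were searched on both strands for the CHR letters TTTGAA and their variant TTCGAA and for CCAAT. The 150 bases before the start site, 5′ to 3′ on the gene's strand, are given for 8 of the 19 members that stood at an end of their functional group in difference or level and whose stretch was read for printing. These 8 were picked with their letters known: they include all 5 of the 19 stretches that hold CHR letters (*Cdk1*, *Espl1*, *Kif22*, *Top2a* and *Ube2c*) and 3 of the 14 that do not, whereas 14 of the 19 hold CCAAT. Of those printed, *Kif18b* and *Pttg1* had the largest and smallest differences of all members, *Espl1*, *Top2a*, *Birc5*, *Cdk1* and *Kif22* stood at an end of their functional group, and *Ube2c* had the highest mean FPKM of its group over the 6 libraries. The capitals mark CHR letters (TTTGAA, its reverse complement TTCAAA, or TTCGAA) and CCAAT or its reverse complement ATTGG.
Cdk1: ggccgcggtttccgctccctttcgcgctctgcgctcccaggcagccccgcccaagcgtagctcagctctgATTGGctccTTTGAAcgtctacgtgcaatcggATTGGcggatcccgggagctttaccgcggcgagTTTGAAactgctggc
Espl1: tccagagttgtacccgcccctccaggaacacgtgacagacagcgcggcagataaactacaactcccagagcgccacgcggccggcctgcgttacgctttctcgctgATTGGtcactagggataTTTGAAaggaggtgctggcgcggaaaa
Ube2c: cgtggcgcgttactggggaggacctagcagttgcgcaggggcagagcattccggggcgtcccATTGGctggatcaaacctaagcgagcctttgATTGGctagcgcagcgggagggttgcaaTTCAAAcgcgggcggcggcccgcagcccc
Top2a: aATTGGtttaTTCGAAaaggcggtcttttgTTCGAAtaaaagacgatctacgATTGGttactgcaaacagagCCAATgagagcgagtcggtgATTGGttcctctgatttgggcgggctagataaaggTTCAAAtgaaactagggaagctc
Kif18b: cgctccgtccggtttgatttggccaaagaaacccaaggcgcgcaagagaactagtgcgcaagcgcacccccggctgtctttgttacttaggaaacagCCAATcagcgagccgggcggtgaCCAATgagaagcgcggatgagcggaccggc
Kif22: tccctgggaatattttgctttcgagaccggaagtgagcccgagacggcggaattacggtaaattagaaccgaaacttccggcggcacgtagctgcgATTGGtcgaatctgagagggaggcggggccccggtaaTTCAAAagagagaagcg
Birc5: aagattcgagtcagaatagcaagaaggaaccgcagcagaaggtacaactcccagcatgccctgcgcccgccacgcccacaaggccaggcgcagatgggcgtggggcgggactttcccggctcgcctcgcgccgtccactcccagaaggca
Pttg1: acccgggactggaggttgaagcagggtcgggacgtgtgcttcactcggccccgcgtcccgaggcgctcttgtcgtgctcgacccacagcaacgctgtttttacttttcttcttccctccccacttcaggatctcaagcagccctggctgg

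These stretches lie at chr10:69352913-69353062 (-), chr15:102296143-102296292 (+), chr2:164769779-164769928 (+), chr11:99024190-99024339 (-), chr11:102925125-102925274 (-), chr7:127042421-127042570 (-), chr11:117849087-117849236 (+) and chr11:43425982-43426131 (-), each ending at the base next to the annotated start. In the 5 stretches of the 19 with CHR letters, at least 1 CHR match starts nearer to the start site than a CCAAT match, and 9 of the other 14 hold CCAAT alone. The stretches end before the start site, and of these 9 only *Nek2* has no CHR letters in its full window. In *Espl1* the match to CCAAT starts 44 bases and the CHR letters 27 bases before the start site, in *Ube2c* the nearest matches start at 57 and 29 bases, and in *Cdk1* at 48 and 15 bases. *Top2a* holds 4 CCAAT matches and 3 CHR matches in the printed stretch. *Kif18b* shows its CCAAT matches at 53 and 30 bases before the start, and its CHR letters lie 4 bases after it, outside the stretch printed. *Birc5* and *Pttg1* hold neither set of letters anywhere in their windows, as do *Mad2l1*, *Ncaph* and *Nuf2*. No match says only that these letters are not in the window read.

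Over the 44 member windows, 36 (81.8%) held CHR letters of either form, against 19.2% of the 32851 promoter windows of all genes. CCAAT was found in 34 (77.3%) against 37.4%, and both elements in 31 (70.5%) against 7.52%. Position set the members apart further, since 33 of the 44 windows (75%) had CHR letters from 50 bases before to 50 bases after the start, against 5.31% of all windows. CCAAT started within the 100 bases before the start in 30 windows (68.2%), against 19.3% of all. These letters were not used to choose the members, but the members belong to the gene class for which the elements were described, so the counts describe the class and test nothing.

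**Figure D1:**
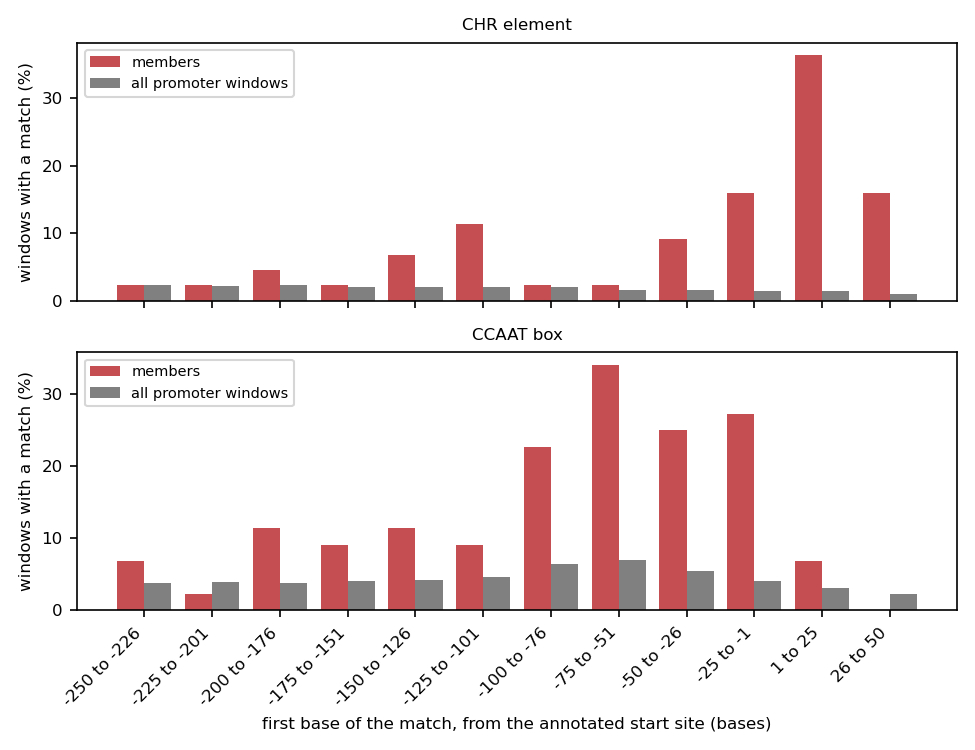
Share of promoter windows (percent, vertical axis) whose match to the CHR letters (upper panel) or to CCAAT (lower panel) starts in each bin of 25 bases from the annotated start site (horizontal axis), for the 44 windows of members (red) and all 32851 windows (grey). CHR matches of members were most frequent in the 25 bases after the start site (36.4% against 1.43%), and CCAAT matches from 75 to 51 bases before it (34.1% against 6.99%).

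The members were higher in the KO libraries almost throughout. Of the 51, 49 were higher at an edgeR adjusted p under 0.05, where 17.7% of all genes tested were higher, and none was lower, where 12.5% of all genes were lower. The other two, *Pttg1* and *Spc25*, had positive fold changes that missed the threshold. Since all 51 fold changes were positive, none was lower at an unadjusted p under 0.05 either, and none was called lower by DESeq2 or limma. The median log2 fold change was 0.84, a ratio of 1.79, with a range of 0.13 to 1.75 and a middle spread (interquartile) of 0.60 to 1.07, while the median over all genes tested was -0.02. Only 7.70% of all genes had a fold change above the members' median. Changes of more than 2-fold that passed the test were found in 18 members, against 5.99% of all genes, and 26 members had log2 fold changes from 0.5 to 1.

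The separation held library by library. For 50 of the 51 members every KO library lay above every WT library, a pattern seen in 24.7% of all genes, and *Pttg1* was the exception. The ratio of the lowest KO library to the highest WT library ran from 0.937 in *Pttg1* to 2.92 in *Kif18b* over the 51 members, and was above 1.5 in 26 of them. The members' summed level was 2924, 2577 and 2831 CPM in KO (2777 ± 179, SD, n = 3) and 1488, 1462 and 1509 CPM in WT (1486 ± 23.2, SD, n = 3), a ratio of 1.87. KO libraries were thus more spread than WT libraries, although the gap between the labels was several times that spread. In RNA from bulk cells, a larger number of dividing cells and more of these transcripts per dividing cell cannot be told apart.

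**Figure D2:**
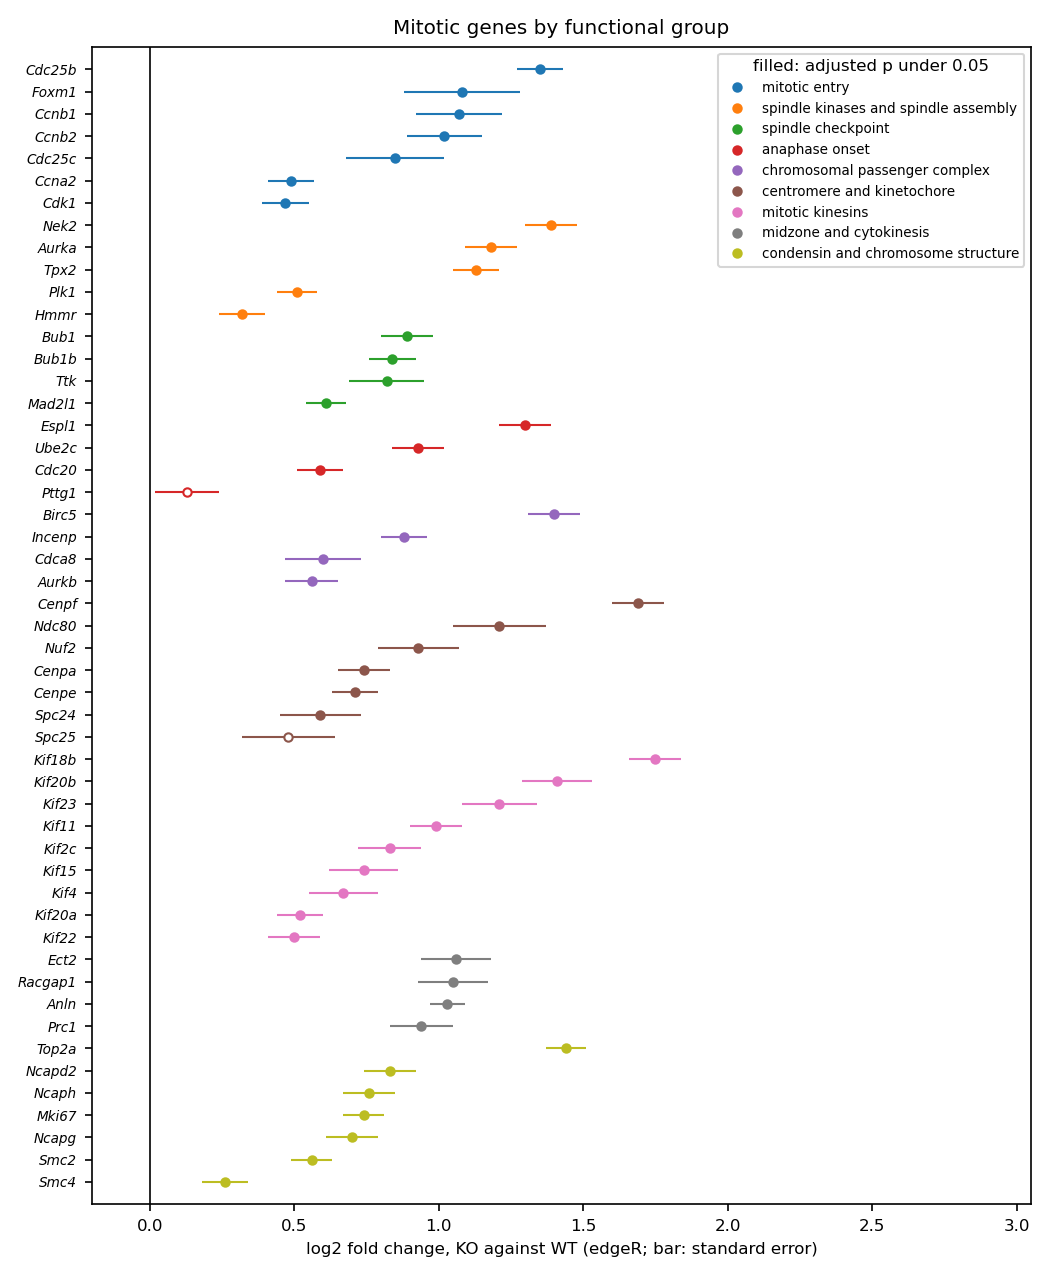
The log2 fold change of KO against WT (horizontal axis, edgeR, bar: standard error) for each of the 51 members (vertical axis), ordered within functional groups by colour. Filled points are past an adjusted p of 0.05 and the open points are *Pttg1* and *Spc25*. All points lie right of 0, from 0.13 to 1.75.

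All 7 genes of mitotic entry were higher in KO, with a median log2 fold change of 1.02. *Cdc25b*, a phosphatase that activates Cdk1, stood at 29.7, 30.5 and 32.1 CPM in KO and at 11.8, 11.7 and 12.8 CPM in WT, a log2 fold change of 1.35 (SE 0.08, edgeR adjusted p = 2.1e-05). Its 3 KO values were closely grouped and lay well above the WT values. *Ccnb2*, a B-type cyclin and the group's highest per length (21.9 FPKM in KO, 10.5 FPKM in WT), was at 38.5, 26.8 and 34.8 CPM in KO and 15.9, 16.5 and 16.8 CPM in WT (log2 fold change 1.02, SE 0.13, adjusted p = 8.7e-04). The second KO library was the lowest of the 3 for this cyclin and still above every WT library. *Cdk1*, the kinase itself, differed least, with 52.4, 56.3 and 52.7 CPM in KO against 38.1, 42.7 and 35.3 CPM in WT (log2 fold change 0.47, SE 0.08, adjusted p = 0.00331).

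The rest of the entry group lay between these. *Ccnb1*, the other B-type cyclin, had a log2 fold change of 1.07, *Foxm1*, a transcription factor of G2 and M phase genes, 1.08, *Cdc25c*, a second Cdk1 phosphatase, 0.85, and *Ccna2*, cyclin A2, 0.49. *Foxm1* was the most variable member in KO, at 68.1, 64.6 and 41.7 CPM (coefficient of variation 24.7%), against 28.1, 32.1 and 22.3 CPM in WT. The lowest KO library was thus 41.7 CPM and the highest WT library 32.1 CPM.

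The 5 spindle kinases and assembly factors were all higher, with a median of 1.13. *Nek2*, a kinase that separates the centrosomes, had 35.5, 34.7 and 36.3 CPM in KO and 13.4, 12.3 and 15.1 CPM in WT (log2 fold change 1.39, SE 0.09, adjusted p = 3.1e-05). *Tpx2*, which activates Aurora A and nucleates spindle microtubules, was the highest per length over the 6 libraries, at 16 FPKM in KO and 7.15 FPKM in WT. In WT alone *Plk1* was higher, at 9.1 FPKM. *Tpx2* stood at 125, 105 and 114 CPM in KO and 56.2, 50 and 51 CPM in WT (log2 fold change 1.13, SE 0.08, adjusted p = 3.9e-05). Its client *Aurka*, the gene of Aurora A, had a similar log2 fold change of 1.18, and *Plk1*, a kinase with roles from entry to cytokinesis, had 0.51. *Hmmr*, which binds microtubules at the spindle poles, differed least, with 31.4, 29.4 and 32.8 CPM in KO and 25.3, 23.6 and 25.9 CPM in WT (log2 fold change 0.32, SE 0.08, adjusted p = 0.0157). The *Hmmr* values did not overlap, but its call was lost without KO replicate 3 (adjusted p = 0.0574) and without WT replicate 2 (adjusted p = 0.0565).

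The 4 checkpoint genes were all higher and differed little among themselves, from 0.61 to 0.89 on the log2 scale. *Bub1*, a kinase that recruits checkpoint proteins to unattached kinetochores, was at 44, 35 and 41.4 CPM in KO and 21.6, 21.4 and 22.1 CPM in WT (log2 fold change 0.89, SE 0.09, adjusted p = 3.4e-04). *Bub1b*, the gene of BubR1 and the highest per length at 10.6 FPKM in KO and 5.78 FPKM in WT, was at 53.4, 45.2 and 53.3 CPM against 28.4, 28.5 and 27.9 CPM (log2 fold change 0.84, SE 0.08, adjusted p = 2.0e-04). The WT libraries were nearly equal for both genes, whereas KO replicate 2 lay below the other two KO libraries. *Mad2l1*, the gene of Mad2, which holds Cdc20 inactive, was at 44.4, 40.7 and 45.8 CPM in KO and 29.1, 28.5 and 27.9 CPM in WT (log2 fold change 0.61, SE 0.07, adjusted p = 5.1e-04). *Ttk*, the gene of the checkpoint kinase Mps1, had a log2 fold change of 0.82.

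The genes of anaphase onset held both a large difference and the smallest of all members. *Espl1*, the gene of separase, the protease that cuts cohesin, was at 44.3, 44.3 and 50.5 CPM in KO and 18.6, 20.7 and 17.2 CPM in WT (log2 fold change 1.30, SE 0.09, adjusted p = 4.8e-05). *Pttg1*, the gene of securin, the inhibitor that binds separase until anaphase, was at 25.5, 21.4 and 21.4 CPM in KO and 22.8, 20 and 19.7 CPM in WT (log2 fold change 0.13, SE 0.11, adjusted p = 0.403). Its libraries overlapped between the labels, and the fit passed the threshold in 1 of 14 alternative analyses, so the protease and its inhibitor had fold changes at opposite ends of the group. *Ube2c*, the conjugating enzyme of the APC/C, was the highest per length over the 6 libraries, at 22.6 FPKM in KO and 11.5 FPKM in WT. In WT alone *Cdc20* was higher, at 13.2 FPKM. *Ube2c* was at 70.7, 58.1 and 57.4 CPM in KO against 34.3, 31.7 and 31.4 CPM in WT (log2 fold change 0.93, SE 0.09, adjusted p = 2.5e-04). *Cdc20*, the activator that the checkpoint restrains, had a log2 fold change of 0.59. The 3 genes called in this group separated the labels in every library.

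The chromosomal passenger complex corrects faulty attachments and later moves to the midzone, and its 4 genes were all higher. *Birc5*, the gene of survivin, which targets the complex to centromeres, was at 46.3, 37.8 and 42.0 CPM in KO and 15.3, 16.3 and 16.2 CPM in WT (log2 fold change 1.40, SE 0.09, adjusted p = 3.0e-05). The kinase subunit *Aurkb* differed least, with 19.8, 19.4 and 21.7 CPM in KO and 13.4, 13.3 and 14.7 CPM in WT (log2 fold change 0.56, SE 0.09, adjusted p = 0.00311). *Incenp*, the scaffold and the highest per length at 25.9 FPKM in KO and 13.7 FPKM in WT, was at 82.5, 81.4 and 83.4 CPM against 49.8, 39.9 and 44.3 CPM (log2 fold change 0.88, SE 0.08, adjusted p = 1.7e-04). *Cdca8*, the gene of borealin, had a log2 fold change of 0.60.

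Of the 7 centromere and kinetochore genes, 6 were higher in KO. *Cenpf*, a large protein of the outer kinetochore that is degraded after mitosis, was at 66.7, 56.9 and 68.3 CPM in KO and 20.4, 19.5 and 19.7 CPM in WT (log2 fold change 1.69, SE 0.09, adjusted p = 8.6e-06). Its ratio of 3.22 was the second largest of the 51 members, and its WT libraries were nearly equal. *Ndc80*, the subunit that grips the microtubule, was at 39.1, 25.9 and 28.7 CPM in KO and 12.9, 14.6 and 13.0 CPM in WT (log2 fold change 1.21, SE 0.16, adjusted p = 8.8e-04). KO replicate 1 was clearly the highest of its label for this gene. *Spc25*, another subunit of the same complex, was at 23.8, 20.3 and 17.0 CPM in KO and 16.7, 12.1 and 15.1 CPM in WT (log2 fold change 0.48, SE 0.16, adjusted p = 0.0519).

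The *Spc25* libraries of the labels touched without overlapping, at 17.0 CPM for the lowest KO and 16.7 CPM for the highest WT library, and the gene was called in 7 of 14 alternative analyses. The other two subunits were *Nuf2*, with a log2 fold change of 0.93, and *Spc24*, with 0.59. *Spc24* lost its call without KO replicate 3 (edgeR adjusted p = 0.0515) or without WT replicate 2 (adjusted p = 0.0517). *Cenpa*, the histone H3 variant that marks centromeres, had a log2 fold change of 0.74 and *Cenpe*, a kinetochore motor, 0.71.

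All 9 mitotic kinesins, motors that slide or shorten spindle microtubules, were higher in KO. *Kif18b*, which destabilises the ends of astral microtubules, had the largest fold change of the members, with 53.1, 43.8 and 51 CPM in KO and 15, 14.2 and 14.9 CPM in WT (log2 fold change 1.75, SE 0.09, adjusted p = 1.0e-05). Its promoter stretch was given above beside that of *Kif22*, a motor that binds chromosome arms, which had the smallest change of the kinesins with 30.2, 27.5 and 27.3 CPM in KO and 18.6, 19.9 and 21.7 CPM in WT (log2 fold change 0.50, SE 0.09, adjusted p = 0.00405). Both stretches hold CCAAT and both windows hold CHR letters, and the ratios were 3.35 and 1.41. *Kif20a*, which brings the passenger complex to the midzone, was the highest per length at 16.9 FPKM in KO and 11.5 FPKM in WT, with 59.1, 61.7 and 69.8 CPM against 46.1, 40.8 and 45.6 CPM (log2 fold change 0.52, SE 0.08, adjusted p = 0.00231). *Kif20a* shares 29.3% of its exon bases with *Cdc23* on the opposite strand, and *Ccna2*, *Cdc25c*, *Kif4*, *Ncapg*, *Prc1* and *Ube2c* share 11.1% to 22.8% with an antisense gene. Whether reads were assigned by strand is not given in the sources used here. The other kinesins ran from 0.67 for *Kif4*, a chromosome-bound motor, through 0.99 for *Kif11*, which pushes the spindle poles apart, to 1.41 for *Kif20b*.

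The 4 genes of the midzone and of cytokinesis were all higher and the most alike of any group, at 0.94 to 1.06 on the log2 scale. *Ect2*, which switches on RhoA at the cell equator, was at 45.3, 37.3 and 46.4 CPM in KO and 20.6, 17.9 and 23.2 CPM in WT (log2 fold change 1.06, SE 0.12, adjusted p = 4.6e-04). *Prc1*, which crosslinks midzone microtubules, was at 75.1, 61.1 and 56.1 CPM against 35.4, 31.3 and 33.3 CPM (log2 fold change 0.94, SE 0.11, adjusted p = 5.6e-04). *Anln*, the gene of anillin, a scaffold of the contractile ring and the highest per length at 21.4 FPKM in KO and 10.2 FPKM in WT, was at 118, 109 and 118 CPM against 53.3, 57.9 and 57.6 CPM (log2 fold change 1.03, SE 0.06, adjusted p = 1.8e-05). Each of the 3 lay above its WT range in every KO library. *Racgap1*, with a log2 fold change of 1.05, and *Kif23*, with 1.21, encode the partners of centralspindlin.

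All 7 genes of condensin and chromosome structure were higher, and their range was wide. *Top2a*, the topoisomerase that untangles sister chromatids, was the member with the highest FPKM in KO (31.5 FPKM, against 11.3 FPKM in WT) and stood at 350, 300 and 353 CPM in KO and 122, 124 and 122 CPM in WT (log2 fold change 1.44, SE 0.07, adjusted p = 7.3e-06). The WT libraries agreed to within a few CPM. *Smc4*, an ATPase subunit of condensin, had the smallest change of a called member, with 107, 93.6 and 91.3 CPM in KO and 81.1, 75.8 and 87.6 CPM in WT (log2 fold change 0.26, SE 0.08, adjusted p = 0.0434). The labels were separated by little for *Smc4*, and its call was lost without KO replicate 1 (adjusted p = 0.0996), WT replicate 1 (0.108) or WT replicate 2 (0.14), with the upper quartile (0.0675) and with the replicate number as a block (0.056). Its partner *Smc2* had a log2 fold change of 0.56, and the other condensin I subunits were *Ncapd2* with 0.83, *Ncaph* with 0.76 and *Ncapg* with 0.70. *Mki67*, the gene of the proliferation marker Ki-67, which coats mitotic chromosomes, had a log2 fold change of 0.74.

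**Figure D3:**
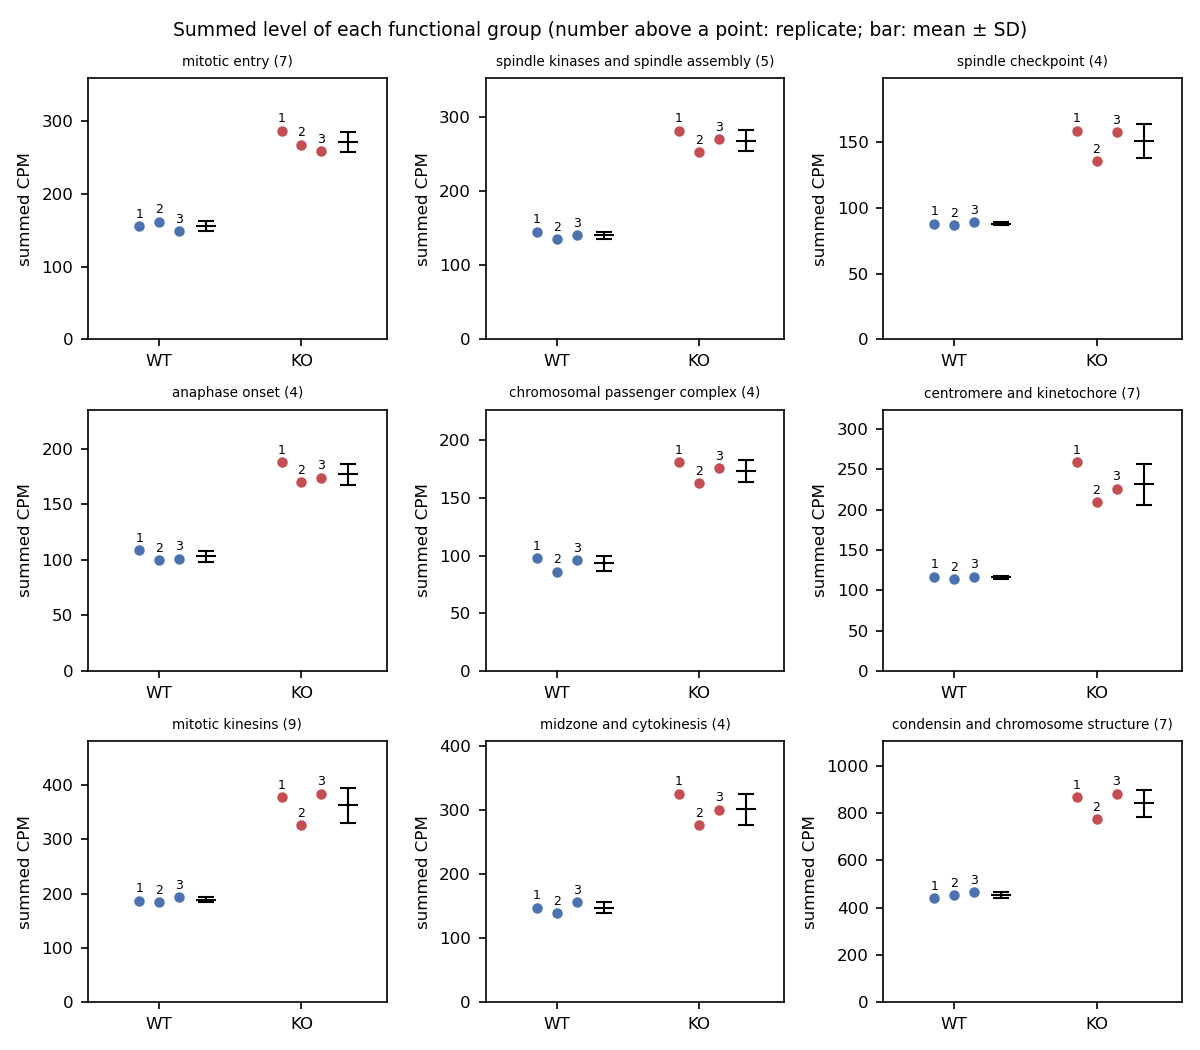
Summed CPM (vertical axis, from 0) of the members of each functional group, with the number of genes in brackets, in each of the 3 WT (blue) and 3 KO (red) libraries. The bar beside the points is the mean ± SD. In all 9 groups every KO library lies above every WT library, with ratios of the means from 1.72 for the checkpoint to 2.03 for the midzone and cytokinesis.

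The size of a member's difference followed its level and its length only weakly. Across the 51 members, Spearman's rho between the log2 fold change and the mean FPKM in WT was -0.17 and that with the gene length was 0.06, as descriptions over genes that share the same 6 libraries. The promoter classes overlapped in their fold changes. Members with both elements had a median log2 fold change of 0.84 (29 genes, 0.32 to 1.75), those with CHR letters alone 1.03 (5 genes), those with CCAAT alone 1.07 (3 genes), and those with neither 0.76 (5 genes, 0.13 to 1.40). *Birc5*, with neither set of letters in the window printed above, had a ratio of 2.64, and *Pttg1*, likewise with neither, had 1.09. FPKM levels between members rest on the length that the authors used, which was 0.339 times (*Ndc80*) to 2.37 times (*Pttg1*) the exon length of the gene in GENCODE M21. With the exon length in its place the member highest per length was the same in 7 of the 9 groups, and it was *Cdc20* rather than *Ube2c* in anaphase onset and *Spc25* rather than *Ndc80* among the centromere and kinetochore genes.

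The KO libraries kept an order among themselves over many members. KO replicate 1 was the highest of its label for 33 of the 51 members and KO replicate 2 the lowest for 38, and the median log2 difference from the WT mean was 0.92, 0.69 and 0.88 in KO replicates 1, 2 and 3. The WT libraries differed by little, at -0.01, -0.03 and 0.02. Marker sums moved alongside: the 10 endothelial markers summed to 2027, 1403 and 1636 CPM in KO replicates 1, 2 and 3, again with replicate 1 highest and replicate 2 lowest, against 264, 266 and 257 CPM in WT. Of these, *Kdr* was at 240, 122 and 140 CPM in KO and 8.68, 9.08 and 8.89 CPM in WT, and *Cldn5* was near 1 CPM in all 6 libraries. The 10 fibroblast markers summed to 27637, 32203 and 30559 CPM in KO replicates 1, 2 and 3, in the opposite order. Of the 10, 9 were lower in KO, but none was lower and 1 was higher when the libraries were scaled on cardiomyocyte and macrophage markers, whereas 9 endothelial markers were higher under both scalings. The scaling on markers called 8482 of the 14084 genes tested higher and 43 lower. The part of these cell types in the members' difference was not tested. Without KO replicate 1 the members' median was 0.80 and 48 members were higher, and without KO replicate 2 these were 0.92 and 49.

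Markers of other cells that the preparation could hold were read in the same way. Macrophage markers summed to 1232 to 1265 CPM in KO and 1521 to 1629 CPM in WT (6 of 10 lower, 1 higher), cardiomyocyte markers to 775 to 865 against 1075 to 1107 CPM (7 of 10 lower), and mural cell markers to 634 to 716 against 897 to 918 CPM (4 of 7 tested lower, 1 higher). The mural count of 4 lower was 2 without WT replicate 2, and 0 with the scaling on cardiomyocyte and macrophage markers, which by construction also left 0 lower in those lists. Neutrophil markers summed to 7.2 to 10.2 CPM in KO and 3.21 to 3.91 CPM in WT, with *Elane* at 0 in every library, and 2 of the 3 tested were higher in KO. These were *S100a8*, at 6.06, 3.98 and 4.06 CPM in KO and 1.12, 0.205 and 0.427 CPM in WT (adjusted p = 0.00174), and *S100a9* (adjusted p = 0.0106), and *Ly6g* had 15, 10 and 7 counts in KO and 0 in WT. *Csf3r*, the third one tested, went the other way without a call (log2 fold change -0.41, edgeR adjusted p = 0.308). It was at 1.31, 1.58 and 2.58 CPM in KO and 2.31, 2.32 and 2.77 CPM in WT. *Cxcr2*, *Mpo* and *Retnlg* had 0 to 5 counts per library, with lower means in KO. All 8 lymphocyte markers had at most 3 counts in any library, with the T cell receptor subunits *Cd3e*, *Cd3d* and *Cd3g* among those at 0, and 7 of 8 erythroid markers also had at most 3. The part of the macrophage, cardiomyocyte, mural and neutrophil markers was not tested.

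**Figure D4:**
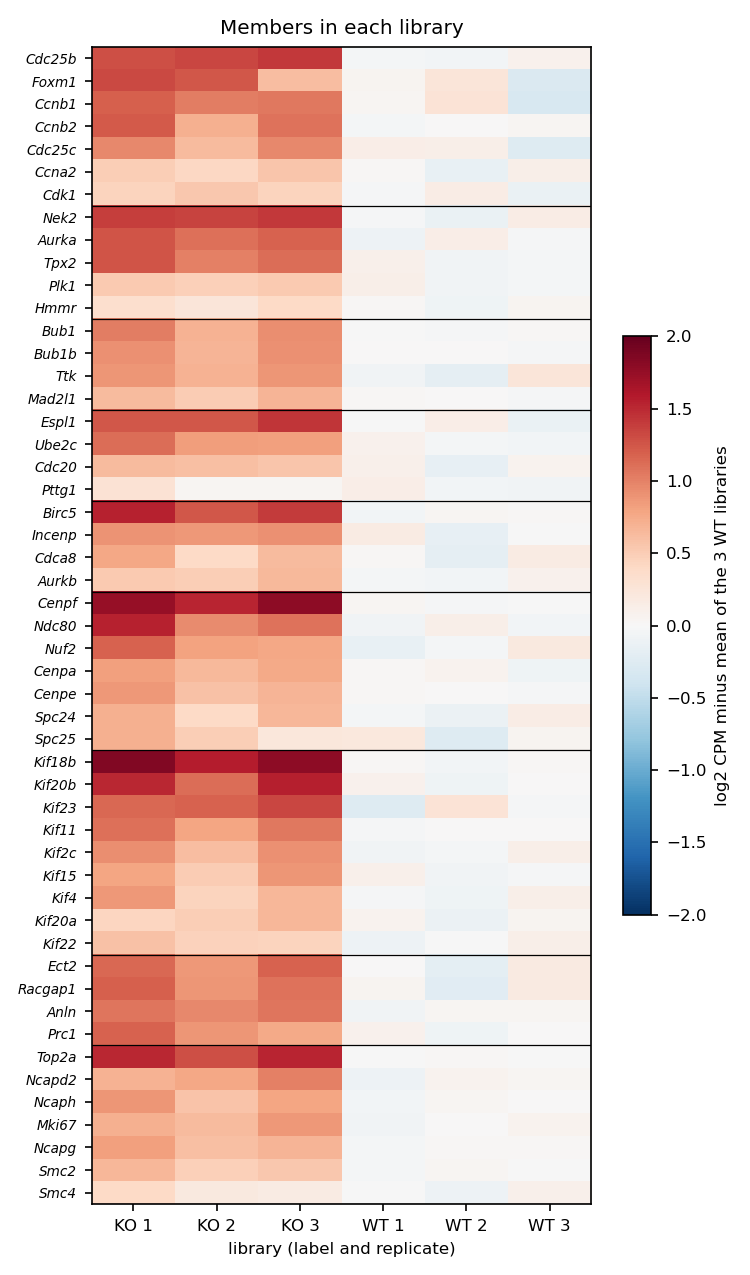
Each member (row, grouped by function between black lines) in each library (column), as log2 CPM minus the mean of the 3 WT libraries (colour, red higher, blue lower). KO replicate 2 is the palest of the KO columns for most members, and the row of *Pttg1* is near 0 throughout.

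Other parts of the cell cycle machinery showed how far the difference reached beyond the 51 members. In 10 further lists of 184 genes (183 tested), 96 genes were higher and 10 lower, where 17.7% of all genes were higher and 12.5% lower. Kinetochore, mitotic and replication lists held most of the higher genes. Of the other kinetochore and checkpoint genes, 20 of 29 were higher (median log2 fold change 0.54), from *Nsl1*, of the Mis12 complex, at 1.40 (edgeR adjusted p = 2.6e-04) down to *Bub3*, a checkpoint protein present through the cycle, at -0.01 (adjusted p = 0.843). Of 39 other periodic mitotic genes 27 were higher (median 0.62), from *Sgol2a*, a protector of centromeric cohesin, at 1.97 (adjusted p = 4.0e-06) to *Ube2s*, a conjugating enzyme of the APC/C, at -0.16 (adjusted p = 0.609). DNA replication genes were higher in 24 of 28 cases (median 0.58), from *Cdc6*, a loader of the replicative helicase, at 1.51 (adjusted p = 1.4e-05) to *Gins4* at -0.08 (adjusted p = 0.494). The members' median of 0.84 was above each of these, and the lists and the members come from the same libraries.

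Partners and relatives of the members that are known to be present through the whole cycle had smaller medians. The APC/C, which *Cdc20* and *Ube2c* serve, had 1 of 14 core subunits higher and 1 lower (median -0.07), neither share above that of all genes, with *Cdc27* highest at 0.42 (adjusted p = 0.00209), *Anapc13* lowest at -0.26 (adjusted p = 0.0993) and *Cdc16* the lower one at -0.24 (adjusted p = 0.0106, named after its value was seen). The 19 transport kinesins tested had 3 higher and 5 lower (median 0.03), against 17.7% higher and 12.5% lower of all genes, with *Kif26a* at 0.87 (adjusted p = 0.0556) and *Kif1a* and *Kif26b* at -0.42 (adjusted p = 0.00414 and 0.00175). When the libraries were scaled on cardiomyocyte and macrophage markers, the median of all genes went from -0.02 to 0.381, and the medians of these lists became 0.33 and 0.42. The APC/C then had 11 of 14 higher and 0 lower, so that the call of *Cdc16* was lost, and the transport kinesins 12 higher and 0 lower. With the library size alone 5 rather than 3 of the kinesins were higher. With limma on log2(FPKM + 1) 3 rather than 5 were lower, as they were without KO replicate 3 or without any one of the WT replicates. Cohesin and condensin II (8 of 13 higher, median 0.23) ran from *Ncapd3*, a condensin II subunit, at 0.75 (adjusted p = 3.3e-04) to *Mau2* at -0.06 (adjusted p = 0.488). The gamma-tubulin and augmin complexes, which nucleate spindle microtubules, had 6 of 15 higher (median 0.16), from *Haus6* at 0.97 (adjusted p = 2.5e-04) to *Haus7* at -0.27 (adjusted p = 0.0612). That count of 6 was 3 without KO replicate 1, KO replicate 3 or any one of the WT replicates, and 14 with the scaling on markers, under which all 13 of the cohesin and condensin II list were higher.

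Among regulators upstream of the members, the DREAM and MuvB subunits that bind CHR and E2F sites had 4 of 11 higher (median 0.09), from *Lin54*, the subunit that reads CHR letters, at 0.89 (adjusted p = 0.012) to *Tfdp2* at -0.28 (adjusted p = 0.724). Of 8 G1 cyclins and their kinases 2 were higher and 1 lower (median 0.18): *Ccnd1*, cyclin D1, was at 321, 227 and 268 CPM in KO and 44.4, 44.9 and 49.9 CPM in WT (log2 fold change 2.55, adjusted p = 7.9e-06), and *Ccnd2*, cyclin D2, was lower at -0.30 (adjusted p = 0.00108), 1 of 8 being the share of all genes that were lower (12.5%). Of 7 CDK inhibitors 1 was higher and 3 lower (median -0.14), with *Cdkn2d* at 0.85 (adjusted p = 0.00104) and *Cdkn1c* at -0.69 (adjusted p = 0.0121). Under the scaling on markers the CDK inhibitors had 4 higher and 0 lower and the G1 list 6 higher and 0 lower, so that the lower calls of both were lost, and the DREAM and MuvB subunits had 8 higher. Of all 14084 genes tested, 8482 were then higher and 43 lower. The median of the inhibitors was then 0.25, below the median of all genes (0.381) as it was without that scaling.

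**Figure D5:**
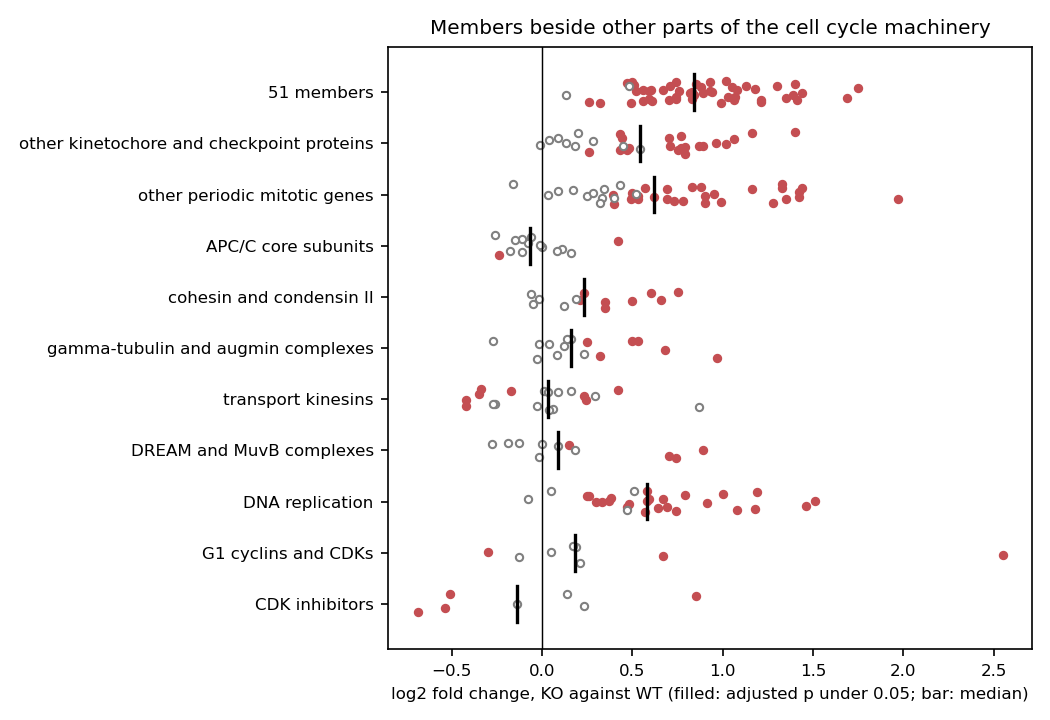
The log2 fold change of KO against WT (horizontal axis) for the 51 members and for the tested genes of the 10 further lists (vertical axis), with filled points past an edgeR adjusted p of 0.05 and a bar at the median. The members' median lies at 0.84, DNA replication at 0.58 and the APC/C core at -0.07, and cyclin D1 is the point at 2.55.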

How the data were processed

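RNA-seq was performed on 3 KO and 3 WT libraries. Reads were aligned by the authors with HISAT2 to the mm10 build, and the submitters' processing notes also name GRCm38.p4 and edgeR. The counting tool, annotation release and strand setting are not given in the sources used here. The authors deposited unnormalized counts for each of 34745 genes and FPKM values, which divide those counts by gene length and library total.

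The quasi-likelihood test of edgeR 4.0.16 (R 4.3.3) was run on the counts after filterByExpr and TMM normalization, and p-values were adjusted by Benjamini-Hochberg over all 14084 genes tested, with all 6 libraries in the fit, no covariate and an adjusted p threshold of 0.05. CPM values are scaled by TMM, and SE is the error of the log2 fold change. The biological coefficient of variation was 10.9%, and the limit for a count of 0, set at 3 counts, came to 0.249 CPM at the lowest depth and covers counting error only. Nothing in the labels says that libraries came from separate animals, so p-values measure the spread between these libraries. A single value of 3 against 3 libraries cannot go below p = 0.1 in an exact permutation test. On simulated data with 2-fold changes in 199 genes (13937 genes tested), edgeR recovered 96% of them, with 4.02% false calls. The simulation gave every gene the same relative spread and changed few genes, up and down alike. In this series 17.7% of genes were higher and 12.5% lower, so these rates need not carry over.

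The members and lists were chosen with earlier results of these data known. In each functional group, the members with the highest mean FPKM over the 6 libraries and the largest and smallest fold change, and any member missing the threshold, were given in every library. Promoters were read from RefSeq (GRCm38.p6). Overlaps of exons were taken from GENCODE M21. The alternatives tried were DESeq2 1.42.0, scaling by library size or upper quartile, a filter at a mean CPM of 1 or none, scaling on cardiomyocyte and macrophage markers, limma 3.58.1 on log2(FPKM + 1), a replicate block, each library left out, and a fold change above 2.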

Additional observations from a re-analysis of the deposited data

How the results depend on the processing

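No member was lower and none changed direction under any of the alternatives tried. The number of members higher, 49, was 48 with the upper quartile, 49 with limma, with a mean CPM of at least 1 and with the replicate block, 50 with DESeq2, with library size and with no filter, 51 with marker scaling, and 46 to 49 with 1 library left out, the lowest without WT replicate 2. With a fold change above 2 in addition it was 18. Marker scaling called 8482 of all 14084 genes tested higher and 43 lower. The members' median log2 fold change, 0.84, was 1.24 with marker scaling, which by its construction moves the median of all genes to 0.381, and 0.72 with limma on log2(FPKM + 1), whose pseudocount lowers the changes of low genes. It was 0.80 to 0.92 with 1 library left out and 0.84 with the replicate block. Over members and alternatives, 697 calls stood on the same side of the threshold, 9 were lost (*Hmmr*, *Spc24*, *Smc4*) and 8 were gained (*Spc25*, and *Pttg1* with marker scaling). In the other lists 96 genes were higher and 10 lower, which became 163 and 0 with marker scaling, 92 and 9 with the replicate block, and 81 to 92 and 7 to 11 with 1 library left out. Same-numbered libraries of KO and WT correlated at 0.00211, 0.00318 and 0.0347 in their deviations, so they shared little over all genes. Whether the numbers pair the samples is not given in the labels, and these correlations cannot decide it. Antisense overlap above 10% of exon bases (*Ccna2*, *Cdc25c*, *Kif20a*, *Kif4*, *Ncapg*, *Prc1*, *Ube2c*) could bear on these members if strand was not used. The antisense gene was at only 0.0107 CPM for *Ube2c* and 0.0367 CPM for *Cdc25c*. For the others it was at 8.79 CPM (*Prc1*) to 74.2 CPM (*Kif20a*). The members had at least 52 counts in every library. Standard errors did not follow the counts throughout. They were 0.17 for *Cdc25c* (52 to 133 counts), 0.09 for *Aurkb* (192 to 337 counts) and 0.07 for *Top2a* (1723 to 5474 counts). The largest was 0.20 for *Foxm1* (314 to 861 counts).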

Other observations

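A few transcripts of the neighbouring lists varied between libraries in a way that the labels do not follow, and were picked out after their values were seen. *Ccnd3*, cyclin D3, was at 61.6, 56.3 and 31.3 CPM in KO replicates 1, 2 and 3 and at 55, 50.3 and 22.9 CPM in WT replicates 1, 2 and 3, so that the library numbered 3 was the lowest of both labels. *Tfdp2*, a dimer partner of E2F proteins, was at 32.6, 13.2 and 10.6 CPM in KO and 12.6, 41 and 14.2 CPM in WT, with 1 high library in each label. *Ube2s* was at 32.7, 20 and 17 CPM in KO and 26.5, 26.3 and 24.7 CPM in WT.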
